A study of Homo sapiens with 12 samples.

Results

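A set of 6 inhibitors of cyclin-dependent kinases (CDKN1B, CDKN1C, CDKN2A, CDKN2B, CDKN2C and CDKN2D), the 3 D cyclins (CCND1, CCND2 and CCND3) and RB1 is described here across a knockdown of PHF19 in 2 human triple-negative breast cancer cell lines. The genes were chosen by name as the proteins that set the G1 checkpoint, and all 10 were found among the 29972 genes listed for each line. PHF19 is a Polycomb-like accessory subunit of PRC2, the complex that methylates histone H3 at lysine 27, and the CDKN2A-CDKN2B locus is a textbook Polycomb target. MDA-MB-436 is an established line, and BoM-1833 is an established derivative of MDA-MB-231 that was selected for growth in bone. In each line the control group (siNT) received a pool of non-targeting siRNAs and the treated group (siPHF19) an equal mixture of 2 siRNAs against PHF19. All 4 groups were transfected at 5 nM total siRNA, grown in the same medium and collected after 72 h, with 3 libraries per group and 12 in all. The non-targeting pool had another supplier than the siRNAs against PHF19, so supplier and target cannot be told apart, and the 2 PHF19 siRNAs were given only as a mixture. No label says whether the 3 libraries of a group came from separate cultures, so the p-values measure the spread between these libraries, which may be technical.

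In G1, a D cyclin binds CDK4 or CDK6, and the active kinase phosphorylates the retinoblastoma protein encoded by RB1, which then releases E2F transcription factors to turn on genes for DNA replication. The INK4 inhibitors (encoded by CDKN2A, CDKN2B, CDKN2C and CDKN2D) bind CDK4 and CDK6 and block their pairing with D cyclins. The CIP/KIP inhibitors (among them CDKN1B and CDKN1C) bind cyclin-CDK complexes more broadly, CDK2 complexes included. Many breast cancers carry extra CCND1 or lose CDKN2A or RB1, which makes this a frequently altered pathway in the tissue.

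PHF19 itself was read first as a check of the labels. In MDA-MB-436 its normalized counts were 2942, 3354 and 3763 after siNT and 340.1, 326 and 315 after siPHF19. In BoM-1833 they were 1711, 1684 and 1669 after siNT and 181, 201 and 173 after siPHF19. All 6 siPHF19 libraries were below all siNT libraries of their line, in keeping with their labels. ESR1 and PGR, receptors that triple-negative tumours lack, had at most 4 reads in any library, whereas ERBB2 had from 854 to 1424 reads, and the mesenchymal markers VIM and CD44 had at least 8017. The leukocyte marker PTPRC had at most 1 read per library in MDA-MB-436 but 15 to 19 in BoM-1833. The endothelial marker PECAM1 had 12 to 32 reads per library in MDA-MB-436 against 239 to 424 for BoM-1833, so neither marker was at 0 there, and their part in the results was not tested. Reads in genes per library ran from 15.2 M to 24.0 M for MDA-MB-436 and, for BoM-1833, from 13.7 M to 21.3 M. In BoM-1833 all 3 siPHF19 libraries were shallower than all 3 siNT libraries; values are normalized for depth, and the part of depth in the results was not tested.

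Sequences at start sites of genes called higher in at least 1 line are shown first, since Polycomb targets are typically rich in CpG. RefSeq windows (GRCh38.p14, 250 bases before to 50 after a start site) were matched by symbol for 7 of the 10 genes; CDKN1C, CCND1 and CCND2 had no window, and the only window of RB1 lies at an internal start. For 4 of these genes, the stretch of a window that lies outside every GENCODE 29 exon is printed 5′ to 3′ on the strand of the gene, with each CpG in capitals. The stretches are chr9:22009364-22009555 (minus strand) for CDKN2B, chr1:50960495-50960744 (plus strand) for CDKN2C, chr19:10569060-10569229 (minus strand) for CDKN2D and chr6:41941849-41942058 (minus strand) for CCND3. The first 3 lie upstream of the annotated gene, whereas that of CCND3 lies before an internal start, within the gene.
CDKN2B: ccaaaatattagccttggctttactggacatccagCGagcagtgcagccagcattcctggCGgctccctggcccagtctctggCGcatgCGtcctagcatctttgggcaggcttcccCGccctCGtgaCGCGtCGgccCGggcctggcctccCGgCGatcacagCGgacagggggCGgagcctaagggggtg
CDKN2C: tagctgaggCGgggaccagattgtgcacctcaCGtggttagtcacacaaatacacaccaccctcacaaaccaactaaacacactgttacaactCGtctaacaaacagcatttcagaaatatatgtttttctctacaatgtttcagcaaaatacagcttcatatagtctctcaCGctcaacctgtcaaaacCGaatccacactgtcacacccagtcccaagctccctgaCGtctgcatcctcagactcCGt
CDKN2D: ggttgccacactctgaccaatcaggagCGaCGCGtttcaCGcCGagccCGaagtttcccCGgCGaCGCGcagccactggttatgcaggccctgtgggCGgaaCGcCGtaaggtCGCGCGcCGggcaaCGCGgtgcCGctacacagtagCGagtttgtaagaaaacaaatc
CCND3: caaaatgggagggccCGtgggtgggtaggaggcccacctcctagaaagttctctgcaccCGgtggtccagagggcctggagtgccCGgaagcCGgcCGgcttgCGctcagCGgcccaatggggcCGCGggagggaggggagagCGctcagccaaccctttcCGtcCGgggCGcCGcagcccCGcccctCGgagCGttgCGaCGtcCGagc
These stretches held 14 CpG in 192 bases for CDKN2B, 7 in 250 bases for CDKN2C, 21 in 170 bases for CDKN2D and 20 in 210 bases for CCND3. Starts of 1 gene differed in CpG count. Over whole windows, CDKN2C had 8 at its upstream start and 37 and 11 at internal starts, and CCND3 had 29, 37 and 3, the last at chr6:41939156-41939455. The count was 36 for CDKN2D, 29 for CDKN1B, 28 and 26 for the 2 starts of CDKN2A, 25 for CDKN2B and 0 at the internal start of RB1. Against a median of 14 over all 35116 windows, 8 of the 12 windows of these genes were above and 4 below. The CDKN1B window (chr12:12717118-12717417) lies almost wholly in an annotated exon and is not printed. CDKN2A, which did not pass the test, and CDKN2B, which did, had similar CpG counts. The E2F motif was searched on both strands as TTTCCCGC, TTTCGCGC, TTTGCCGC and TTTGGCGC. None of the 12 windows of these genes held it, against 3.31% of all windows. This says only that these letters are not in these windows.

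After siPHF19, 4 of the 6 inhibitor genes were higher in MDA-MB-436 (CDKN1B, CDKN2B, CDKN2C and CDKN2D) and 3 of them in BoM-1833 (CDKN1B, CDKN2C and CDKN2D). A gene is called changed where the adjusted p in the authors' deposited table is under 0.05. Lack of overlap between groups is given as description only, since some uncalled genes show it too. The share of all genes without overlap was not counted. In MDA-MB-436, RB1 was the fifth gene called higher, which made 5 of 9 tested genes. In BoM-1833, CCND3 was the fourth, which made 4 of 8 tested genes. The MDA-MB-436 count was 3, with CDKN2D and RB1 lost, without DESeq2's independent filtering, and also 3 without siNT replicate 2, siPHF19 replicate 1 or siPHF19 replicate 2. Over all genes tested the share called was 22.1% in MDA-MB-436 (10.5% higher and 11.5% lower) and 10.9% in BoM-1833 (5.21% higher and 5.72% lower). None of the 10 genes was called lower in either line by DESeq2. At an unadjusted p under 0.05, 0 were lower in MDA-MB-436 and 1, CDKN1C, in BoM-1833, which edgeR and limma did call. The median log2 fold change was 0.29 over the 9 tested genes and 0.00 over all genes in MDA-MB-436, and 0.18 over the 8 tested genes and 0.00 over all genes in BoM-1833. Genes left untested were CCND2 in MDA-MB-436, and CDKN2A and CDKN2B in BoM-1833, all at 5 reads or fewer in each library. These are bulk libraries, in which fewer cells in a given state and less RNA per cell cannot be told apart.

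**Figure D1:**
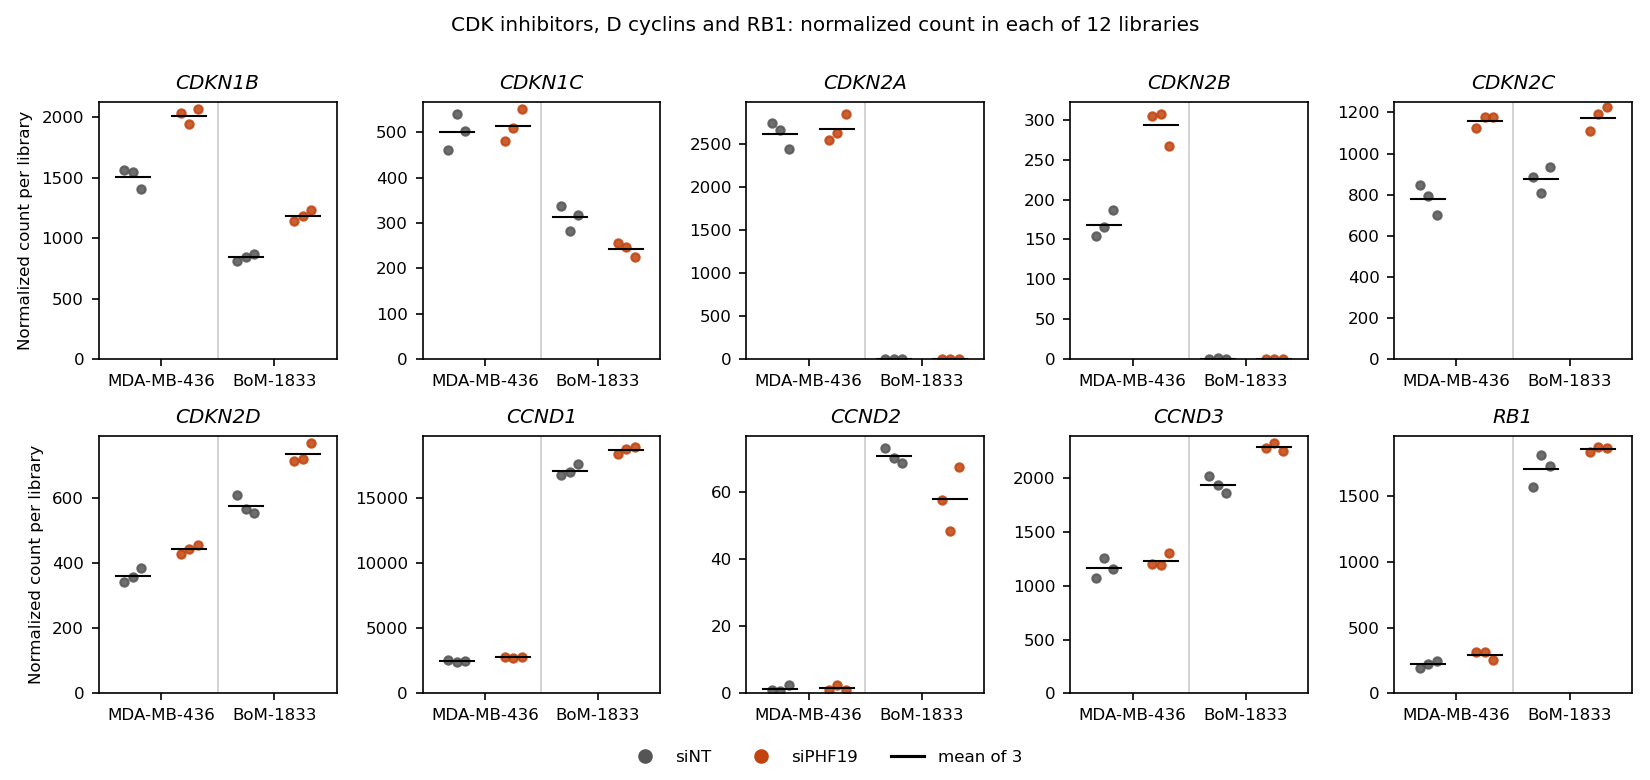
Normalized count (y axis, linear, one scale per gene from 0) in each of the 12 libraries for the 10 genes; grey points are siNT, orange points siPHF19 and bars the mean of 3 libraries. The siPHF19 points of CDKN1B, CDKN2C and CDKN2D lie above the siNT points in both lines, while CDKN2A and CDKN2B lie at or near 0 in BoM-1833.

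CDKN1B encodes p27Kip1, the CIP/KIP inhibitor that holds CDK2 complexes in check and whose protein is removed by the SKP2 ubiquitin ligase as cells enter S phase. The gene lies at 12715058 to 12722371 on the plus strand of chromosome 12 (GRCh38, GENCODE 29, as for all gene positions here). In MDA-MB-436 its normalized counts were 1565, 1549 and 1409 after siNT and 2032, 1941 and 2066 after siPHF19. In BoM-1833 they were 808, 842 and 873 after siNT and 1141, 1179 and 1231 after siPHF19. Every siPHF19 library was above every siNT library in both lines, with no overlap. The means were 1508 ± 86.1 and 2013 ± 64.3 (SD, n = 3 each) in MDA-MB-436, a log2 fold change of 0.42 (SE 0.08) with an adjusted p of 1.56e-06 in the authors' deposited table. In BoM-1833 they were 841 ± 32.4 and 1184 ± 45.2 (SD, n = 3 each), a log2 fold change of 0.49 (SE 0.08) with an adjusted p of 8.08e-08 in the same authors' deposited table. The CDKN1B log2 fold changes differed by -0.08 between the lines (MDA-MB-436 minus BoM-1833, 95% interval -0.30 to 0.14).

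CDKN1C encodes p57Kip2, a CIP/KIP inhibitor best known as an imprinted gene of chromosome 11 (2883213 to 2885773, minus strand). In MDA-MB-436 its normalized counts were 461, 541 and 503 after siNT and 482, 509 and 551 after siPHF19, and the groups overlapped. The log2 fold change there was 0.03 (SE 0.11; adjusted p = 0.876, authors' deposited table). In BoM-1833 the counts were 338, 283 and 319 after siNT and 255, 247 and 226 after siPHF19. All 3 siPHF19 libraries lay below all 3 siNT libraries, so CDKN1C ran opposite in sign to CDKN1B in that line. The log2 fold change was -0.37 (SE 0.14), with an adjusted p of 0.0559 in the authors' deposited table, just short of the threshold. On the recovered reads edgeR's quasi-likelihood test gave an adjusted p of 0.0335, and limma on log2(value + 1) gave one of 0.0325. Over the 12 alternatives tried, the adjusted p ran from 0.021 to 0.343. CDKN1B made up 66.2% ± 2.48 (SD, n = 3) of the length-scaled reads of this pair in BoM-1833 after siNT and 78.0% ± 1.71 after siPHF19. In MDA-MB-436 the CDKN1B share was 68.7% ± 2.24 after siNT and 74.1% ± 1.21 after siPHF19.

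Of the INK4 genes, CDKN2B had the largest fold change in either line among the tested genes of the set (inhibitors, D cyclins and RB1). It encodes p15INK4b, an INK4 inhibitor known for its induction by TGF-beta, and lies at 22002903 to 22009363 on the minus strand of chromosome 9, beside CDKN2A. MDA-MB-436 libraries had normalized counts of 154, 165 and 187 after siNT and 304, 307 and 267 after siPHF19. The lowest siPHF19 library was well above the highest siNT library. The means were 169 ± 16.9 and 293 ± 22.3 (SD, n = 3 each), a 1.74-fold rise, or 0.80 on the log2 scale (SE 0.15; adjusted p = 1.09e-06, authors' deposited table). Of all genes tested in MDA-MB-436, 97.9% had a lower log2 fold change than CDKN2B. In BoM-1833 the 6 libraries held 1 read of CDKN2B in all, and no fold change can be given.

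CDKN2A encodes p16INK4a and, from a second reading frame, p14ARF, and lies at 21967753 to 21995301 on the minus strand of chromosome 9. In MDA-MB-436 its normalized counts were 2745, 2655 and 2439 after siNT and 2543, 2626 and 2846 after siPHF19, and the groups overlapped. The means were 2613 ± 158 and 2672 ± 157 (SD, n = 3 each), so that the log2 fold change was 0.03 (SE 0.08, 95% interval -0.12 to 0.19; adjusted p = 0.827, authors' deposited table). The interval lies below that of its neighbour CDKN2B, which ran from 0.51 to 1.09 in the same libraries. In BoM-1833 the reads were 0, 5 and 0 after siNT and 0 in each siPHF19 library. CDKN2A and CDKN2B share 31 stretches of 50 bases, under 1% of either gene's stretches. Their loci also overlap the antisense RNA CDKN2B-AS1, and whether counting used strand is not stated, so antisense reads may be among them. CDKN2B-AS1 had 8 to 41 reads per MDA-MB-436 library, against 141 to 371 for CDKN2B. Its siPHF19 libraries there were above its siNT libraries without overlap. The log2 fold change of CDKN2B-AS1 was 1.05 (SE 0.48; adjusted p = 0.102, authors' deposited table), which did not pass. The part of antisense reads in the CDKN2B counts was not tested.

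CDKN2C encodes p18INK4c, an INK4 inhibitor, on the plus strand of chromosome 1 (50960745 to 50974633). Normalized counts in MDA-MB-436 were 845, 792 and 701 after siNT and 1123, 1176 and 1179.7 after siPHF19. For BoM-1833 the counts were 888, 806 and 935 after siNT and 1109, 1190.1 and 1227 after siPHF19. The groups did not overlap in either line. The authors' deposited tables give CDKN2C a log2 fold change of 0.57 (SE 0.09) with an adjusted p of 3.17e-08 for MDA-MB-436. For BoM-1833, the authors' deposited table has 0.42 (SE 0.09) with an adjusted p of 3.55e-05. The calls of CDKN1B, CDKN2B and CDKN2C held under all 12 alternatives in each line where the gene was tested, with a highest adjusted p of 0.0067, for CDKN2C in BoM-1833.

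CDKN2D encodes p19INK4d, the remaining INK4 inhibitor, on the minus strand of chromosome 19 (10566462 to 10569059). The MDA-MB-436 libraries held normalized counts of 343, 357 and 386 after siNT and 428, 443 and 457 after siPHF19. Those of BoM-1833 were 609.6, 567 and 554 after siNT and 713, 719 and 770.0 after siPHF19. The groups did not overlap in either line. In the authors' deposited tables the log2 fold change of CDKN2D was 0.29 (SE 0.11) with adjusted p = 0.0406 for MDA-MB-436, and 0.35 (SE 0.09) with adjusted p = 0.00409 for BoM-1833. In MDA-MB-436 the DESeq2 adjusted p was 0.0562 without independent filtering. There the call was also lost without siNT replicate 1 (0.14), siNT replicate 2 (0.228), siPHF19 replicate 1 (0.151), siPHF19 replicate 2 (0.217) or siPHF19 replicate 3 (0.231), each a DESeq2 adjusted p. In BoM-1833 it was lost without siPHF19 replicate 3 (DESeq2 adjusted p = 0.0916).

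CCND1, the most abundant D cyclin in both lines, is on the plus strand of chromosome 11 (69641087 to 69654474). Normalized counts in MDA-MB-436 were 2581, 2413 and 2522 after siNT and 2811, 2685 and 2813 after siPHF19. The BoM-1833 counts, from a table normalized on its own, were 16774, 16983 and 17589.6 after siNT and 18348, 18798 and 18956 after siPHF19. The siPHF19 libraries were the higher ones in both lines without overlap, by 1.11-fold in MDA-MB-436 and 1.09-fold in BoM-1833. In the authors' deposited tables the log2 fold change of CCND1 was 0.14 (SE 0.07) with adjusted p = 0.109 for MDA-MB-436, and 0.13 (SE 0.05) with adjusted p = 0.0881 for BoM-1833, so neither passed the test. Without siNT replicate 1 of its line, CCND1 did pass, with DESeq2 adjusted p = 0.0414 (MDA-MB-436) and 0.0168 (BoM-1833).

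CCND3 lies on the minus strand of chromosome 6 (41934933 to 42050357). The MDA-MB-436 libraries held normalized counts of 1075, 1259 and 1154 after siNT and 1204, 1197 and 1305 after siPHF19, with overlap, and the log2 fold change was 0.08 (SE 0.09; adjusted p = 0.561, authors' deposited table). In BoM-1833 the counts were 2020.2, 1942 and 1869 after siNT and 2284, 2334 and 2255 after siPHF19. There the groups did not overlap, and the log2 fold change was 0.24 (SE 0.07; adjusted p = 0.00557, authors' deposited table). The BoM-1833 call was lost without siNT replicate 2 (0.0501), siNT replicate 3 (0.056), siPHF19 replicate 1 (0.0548) or siPHF19 replicate 2 (0.102), each a DESeq2 adjusted p. The change of CCND3 differed by -0.15 between the lines (MDA-MB-436 minus BoM-1833, 95% interval -0.37 to 0.07), so the call in 1 line alone does not show a difference.

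CCND2, on the plus strand of chromosome 12 (4273772 to 4305350), was all but silent in MDA-MB-436, with 1 to 3 reads per library. In BoM-1833 its normalized counts were 73.0, 70.1 and 68.7 after siNT and 57.6, 48.4 and 67.3 after siPHF19. The groups were separated only narrowly, and the log2 fold change of -0.29 (SE 0.26; adjusted p = 0.593, authors' deposited table) did not pass. Its annotation overlaps AC008012.1, a same-strand gene that holds 13.2% of the 50-base stretches of CCND2, so reads could be split between them.

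RB1 lies on the plus strand of chromosome 13 (48303726 to 48599436). For MDA-MB-436 the normalized counts of RB1 were 193, 224 and 247 after siNT and 312, 315 and 250.3 after siPHF19. The groups met closely, since the lowest siPHF19 library was only just above the highest siNT library. The log2 fold change was 0.40 (SE 0.15; adjusted p = 0.0397, authors' deposited table). The DESeq2 adjusted p was 0.055 without independent filtering. The call was also lost without siNT replicate 1 (0.165), siNT replicate 2 (0.154), siPHF19 replicate 1 (0.233) or siPHF19 replicate 2 (0.267), again DESeq2 adjusted p-values. In BoM-1833 the counts were 1570.1, 1815 and 1731 after siNT and 1839, 1874 and 1869 after siPHF19, with no overlap, and the log2 fold change was 0.13 (SE 0.07; adjusted p = 0.332, authors' deposited table).

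Whether the response differed between the lines was tested as the difference of the deposited log2 fold changes over its standard error, with Benjamini-Hochberg adjustment over 12290 genes. Of the 7 genes tested in both lines, 0 differed at an adjusted p under 0.05, against 4.89% of all genes. At an unadjusted p under 0.05 there was 1, CDKN1C, whose log2 fold change was 0.40 higher in MDA-MB-436 (95% interval 0.06 to 0.74; z test adjusted p = 0.206). DESeq2's interaction test called 0 and the same z test on limma estimates called 1, again CDKN1C. RB1 had the next largest difference, 0.28 (95% interval -0.06 to 0.61; z test adjusted p = 0.435). With intervals this wide, the 2 lines are not shown to respond alike.

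**Figure D2:**
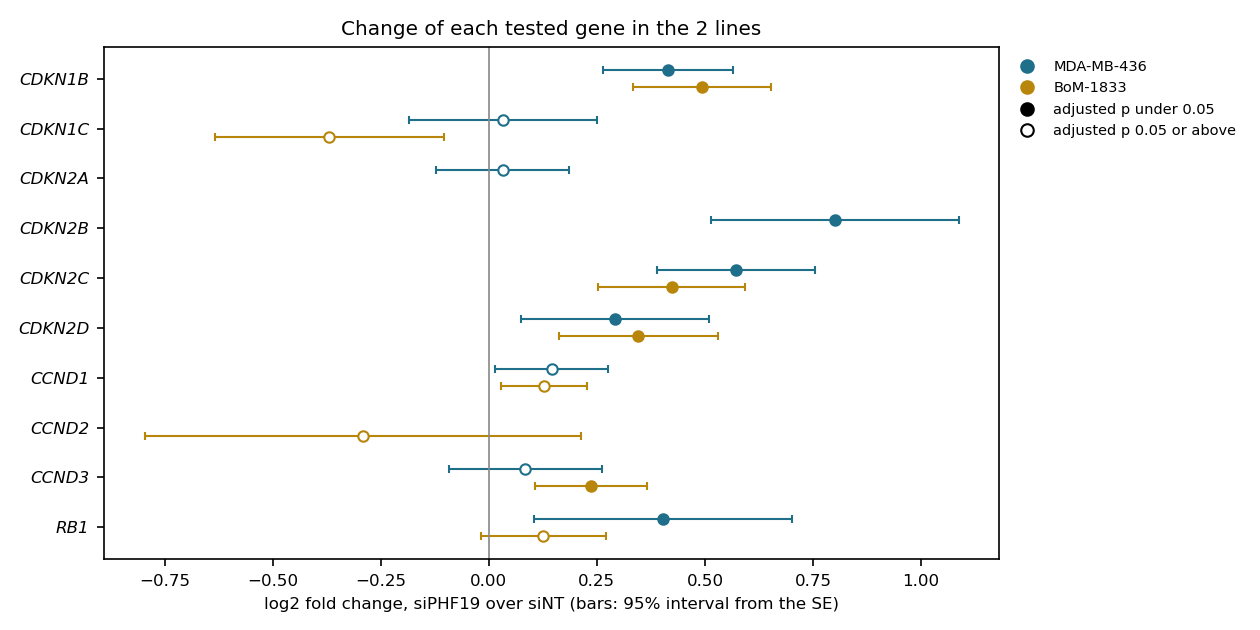
Log2 fold change of siPHF19 over siNT (x axis) for each tested gene (y axis) with its 95% interval, in MDA-MB-436 (blue) and BoM-1833 (ochre); filled points have an adjusted p under 0.05. The intervals of CDKN1B, CDKN2C and CDKN2D lie above 0 in both lines, and CDKN2B, tested in MDA-MB-436 alone, lies farthest to the right at 0.80.

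To compare levels between genes, recovered reads were scaled to RPKM, that is to the length of the longest annotated transcript in kilobases and to a library total of 1 M reads in genes. Levels of the 2 lines are set side by side without a test, since the tables were normalized separately. In MDA-MB-436 after siNT, CDKN2A stood highest at 108 ± 5.30 (SD, n = 3) RPKM. CCND1 (31.0 ± 0.77) and CDKN1B (30.2 ± 1.47) followed with overlapping libraries. CCND3 came next at 25.9 ± 2.40. CDKN2C (14.3 ± 1.15), CDKN1C (13.8, lowest library 12.4) and CDKN2D (13.6 ± 1.02) could not be told apart in level. RB1 (2.46 ± 0.34) and CDKN2B (2.30 ± 0.26) overlapped near the bottom, above CCND2 at 0.01. After siPHF19, CDKN1B at 41.0 ± 1.27 stood above CCND1 at 34.8 ± 0.90 with no overlap, and CDKN2B at 4.05 ± 0.32 stood above RB1 at 3.30 ± 0.42.

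The BoM-1833 order was led by cyclins instead. After siNT, CCND1 stood at 237 ± 6.04 (SD, n = 3) RPKM and CCND3 at 48.5 ± 1.87. CDKN2D followed at 24.2 ± 1.12. RB1 (21.3 ± 1.75), CDKN1B (18.9 ± 0.78) and CDKN2C (18.0 ± 1.18) came next, each overlapping its neighbour. CDKN1C was at 9.66 ± 0.76 and CCND2 at 0.65 ± 0.02, with CDKN2A at 0.07 and CDKN2B near 0. After siPHF19, CDKN1B at 26.9 ± 1.02 stood above CDKN2C at 24.5 ± 1.21 and RB1 at 23.5 ± 0.17, of which the last pair overlapped. Of the length-scaled D cyclin reads of MDA-MB-436 after siNT, CCND1 held 54.5% ± 2.81 (SD, n = 3) and CCND3 45.5% ± 2.81. In BoM-1833, CCND1 held 82.8% ± 0.89 and CCND3 16.9% ± 0.88. Within the INK4 genes of MDA-MB-436, CDKN2A held 78.2% ± 0.89 after siNT and 72.6% ± 0.88 after siPHF19, while CDKN2C held 10.3% ± 0.47 and then 13.9% ± 0.41. In BoM-1833 nearly all INK4 reads came from CDKN2D and CDKN2C, at 57.3% ± 2.16 and 42.6% ± 2.35 after siNT. These ranks and shares depend on the transcript length used. With the shortest coding transcript, 12 of the 20 ranks of the siNT groups stayed the same. After siNT, CCND1 then held 65.6% ± 2.56 and CCND3 34.4% ± 2.56 of the D cyclin reads in MDA-MB-436. The order of the INK4 pair in BoM-1833 turned, with CDKN2C at 57.3% ± 2.42 and CDKN2D at 42.4% ± 2.13.

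The genes around CDKN2A showed how far the silence of BoM-1833 reached. MTAP, a methionine salvage enzyme whose gene starts 193 kb from the start of CDKN2A, had 7017 reads over the 6 MDA-MB-436 libraries and 0 over the 6 BoM-1833 libraries. KLHL9, a ubiquitin ligase adaptor, had 4296 and 0. DMRTA1, on the other side, had 94 and 0, and CDKN2B-AS1 had 117 and 0. The 6 BoM-1833 libraries held 101 M reads in genes, so a count of 0 allows up to 0.0296 RPM (reads per 1 M reads in genes; 3 reads, counting error only). MTAP averaged 61.9 RPM in MDA-MB-436, CDKN2A 142 and CDKN2B 12.4. Of the 23 protein-coding genes that start within 1 Mb of CDKN2A, 21 were listed; 19 had 0 reads in BoM-1833 and the other two were CDKN2A with 5 and CDKN2B with 1. Most are interferon genes that were also silent in MDA-MB-436, where 14 had 0 reads and 4 had at least 100 (CDKN2A, CDKN2B, MTAP and KLHL9). The nearest genes with at least 100 BoM-1833 reads were FOCAD, 1.34 Mb below (148 reads, against 4742 in MDA-MB-436), and TUSC1, 3.68 Mb above (1129 and 2786 reads). MDA-MB-231, the parent of BoM-1833, is known for a homozygous deletion of CDKN2A. DNA was not measured here, so loss and silence of the locus cannot be told apart in these libraries.

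RB1 was lower in MDA-MB-436, at 13.8 RPM over its 6 libraries against 107 in BoM-1833. Its neighbours with at least 100 reads in each line differed less between the lines, some of them in the same direction. ITM2B, whose start lies 71.1 kb before that of RB1, averaged 113 RPM in MDA-MB-436 against 176 in the other line. MED4, a Mediator subunit, averaged 48.6 and 38.4, and SUCLA2, a subunit of succinyl-CoA ligase, 62.1 and 43.2. On the other side, RCBTB2 averaged 2.20 and 4.13, FNDC3A 168 and 90.8 and CDADC1 7.55 and 8.24. LPAR6, which lies within an intron of RB1 on the opposite strand, had 0 reads in all 12 libraries. Of 11 protein-coding genes within 1 Mb of the start of RB1, RB1 itself included, 8 had at least 100 reads in each line. Neither the DNA of RB1 nor its protein was measured here. These RNA levels therefore do not show whether either line makes a working retinoblastoma protein.

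**Figure D3:**
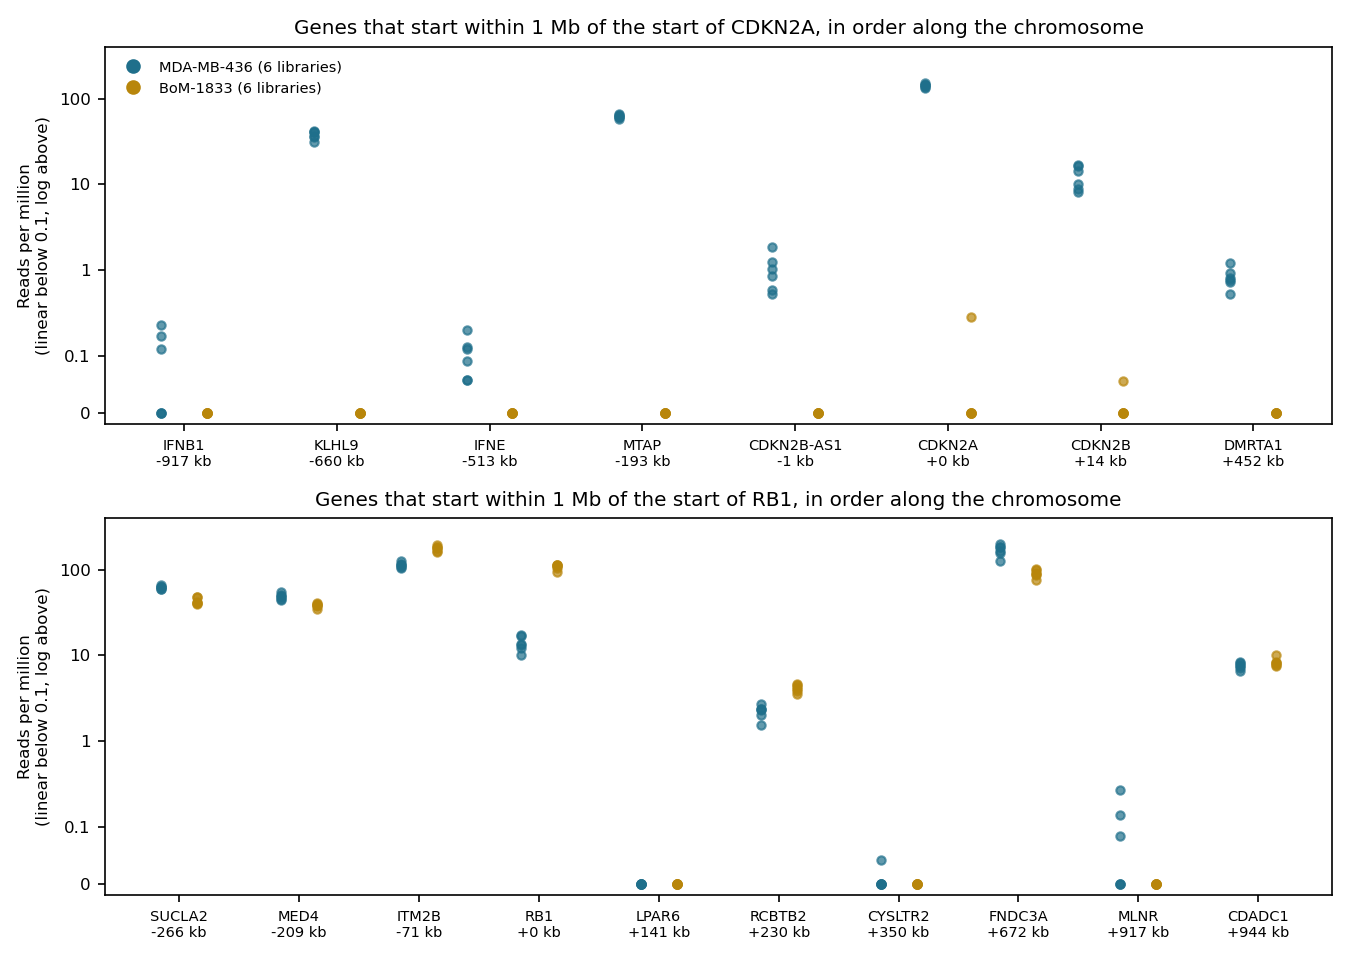
Reads per 1 M reads in genes (RPM, y axis, linear below 0.1 and logarithmic above) in each of 6 MDA-MB-436 (blue) and 6 BoM-1833 (ochre) libraries for the reported genes that start within 1 Mb of CDKN2A (top) or RB1 (bottom), with the distance from that gene's start in kb under each name; the interferon alpha and omega genes, all at 0 reads, are left out of the top panel. MTAP and KLHL9 are at 0 in BoM-1833 beside CDKN2A, whereas the genes beside RB1 with at least 100 reads are expressed in both lines.

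Other genes of the pathway were counted in 4 lists. In the G1 partner list (CDKs, E and A cyclins, E2F and pocket proteins), 7 of 24 tested genes were called higher and 0 lower in MDA-MB-436, and 5 of 24 higher and 0 lower in BoM-1833. By unadjusted DESeq2 p under 0.05, 2 were lower in each line, and edgeR also called 0 lower in each. The list medians were 0.05 and 0.03 on the log2 scale, near those of all genes. In the list of RB-E2F targets, 12 of 26 were called lower and 1 higher in MDA-MB-436, with a median of -0.18. There edgeR with its filter on low counts called 11 lower. DESeq2 called 9 lower without independent filtering and 4 with the replicate number as a block. In BoM-1833, 2 were higher and 0 lower, with a median of 0.04, and the unadjusted DESeq2 p was under 0.05 for 1 lower gene while edgeR called 0 lower with its filter on low counts and 1 without. Of the genes for turnover of the inhibitor and D cyclin proteins, 1 of 15 was higher and 1 lower in MDA-MB-436, and 0 of 14 higher and 1 lower in BoM-1833, where no gene was higher at an unadjusted DESeq2 p under 0.05 and edgeR called 0. Of the factors that control transcription of the inhibitors, 3 of 19 were higher and 2 lower in MDA-MB-436, and 1 of 17 higher and 3 lower in BoM-1833. In all, 27 of 84 and 12 of 81 genes of the lists were called. The shares called over all genes tested were 22.1% (10.5% higher and 11.5% lower) in MDA-MB-436 and 10.9% (5.21% higher and 5.72% lower) in BoM-1833. Without 1 library the MDA-MB-436 count fell to 14 (siNT replicate 2 or siPHF19 replicate 1), 15 (siPHF19 replicate 2) or 16 (siPHF19 replicate 3). The BoM-1833 count became 20 without siNT replicate 1 and 5 without siPHF19 replicate 2.

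Among the G1 partners, the kinase partner of the D cyclins CDK6 had normalized counts of 901, 887 and 1068 after siNT and 1365, 1246 and 1242 after siPHF19 in MDA-MB-436. This rise without overlap was 0.43 on the log2 scale (SE 0.10; adjusted p = 1.25e-04, authors' deposited table). In BoM-1833 its counts were 1540.0, 1887 and 1803 after siNT and 1847, 1616 and 1717 after siPHF19, with a log2 fold change of -0.01. Of the cyclins that partner CDK2, CCNE2 and CCNA2 rose in both lines, CCNA1 was called higher in MDA-MB-436 alone, and CCNE1 was called in neither. CCNE2 had log2 fold changes of 0.43 (MDA-MB-436) and 0.45 (BoM-1833). For CCNA2 the values were 0.23 and 0.36, for CCNA1 0.94 and 0.37 and for CCNE1 -0.15 and 0.10. The repressor E2F8, which acts on E2F target promoters late in S phase, rose by 0.41 and 0.51 on the log2 scale. E2F5, which acts with the RB1-related pocket proteins, rose by 0.51 in MDA-MB-436 and had 0.20 (adjusted p = 0.494, authors' deposited table) in BoM-1833. The changes of CCNA1 and E2F5 were not shown to differ between the lines (z test adjusted p = 0.377 and 0.467). The BoM-1833 calls of CCNE2 and E2F8 and the MDA-MB-436 calls of CCNE2, CCNA2 and E2F5 each depended on single libraries. All of these calls but that of E2F5 were also lost with the replicate number as a block. CCNE2 in BoM-1833 reached a DESeq2 adjusted p of 0.15 without siPHF19 replicate 2, 0.0979 without siPHF19 replicate 1 and 0.0977 without siNT replicate 3. E2F8 in BoM-1833 reached 0.0599 without siPHF19 replicate 2, and E2F5 in MDA-MB-436 0.0614 without siNT replicate 2, both DESeq2 adjusted p-values. In MDA-MB-436, CCNE2 reached a DESeq2 adjusted p of 0.115 without siPHF19 replicate 2. There CCNA2 reached 0.0864 without siNT replicate 2, 0.0886 without siPHF19 replicate 1, 0.17 without siPHF19 replicate 2 and 0.104 without siPHF19 replicate 3, as DESeq2 adjusted p-values.

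Among the RB-E2F targets, RRM2, a subunit of ribonucleotide reductase, ran against its list in MDA-MB-436. Its log2 fold change there was 0.40 (SE 0.08; adjusted p = 2.17e-05, authors' deposited table). The BoM-1833 value was 0.55 (SE 0.06; adjusted p = 8.72e-16, authors' deposited table). MYBL2, a transcription factor, had BoM-1833 counts of 963, 971 and 965 after siNT and 1277, 1325 and 1338 after siPHF19. There MYBL2 rose by 0.44 on the log2 scale (SE 0.08, adjusted p = 2.92e-07, authors' deposited table). In MDA-MB-436 its log2 fold change was -0.03 (adjusted p = 0.745, authors' deposited table).

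Among genes that act on the inhibitors, FOXO3, a forkhead factor known to activate CDKN1B, fell in both lines while CDKN1B rose. FOXO3 had MDA-MB-436 counts of 1314, 1587 and 1728 after siNT and 1038, 987 and 934 after siPHF19. In BoM-1833 they were 841, 965 and 1041 after siNT and 649, 538 and 569 after siPHF19. The groups did not overlap. The log2 fold change was -0.65 (SE 0.11; adjusted p = 7.43e-08, authors' deposited table) in the first line and -0.69 (SE 0.11; adjusted p = 3.96e-09, authors' deposited table) in the second. ETS1, a factor known to activate CDKN2A, had log2 fold changes of -0.36 and -0.33, and was also called lower in both lines. BMI1, the PRC1 subunit known to repress CDKN2A, rose by 0.48 in MDA-MB-436 and by 0.32 in BoM-1833 on the log2 scale. In BoM-1833, where CDKN2A had 5 reads in all, the BMI1 call did not hold in edgeR with its filter on low counts (adjusted p = 0.061) or limma (adjusted p = 0.0554). There it was also lost in DESeq2 without siPHF19 replicate 1 (adjusted p = 0.131) or siPHF19 replicate 2 (adjusted p = 0.195). With the replicate number as a block, the DESeq2 adjusted p of BMI1 in BoM-1833 was 0.06955. KDM6B, a demethylase of histone H3 lysine 27, rose by 0.46 in MDA-MB-436 and had a log2 fold change of 0.01 in BoM-1833. CUL4B, a cullin scaffold of ubiquitin ligases, had log2 fold changes of -0.50 and -0.22 and was called lower in both lines. Its BoM-1833 call was lost without siNT replicate 2 (0.0627), siPHF19 replicate 2 (0.0755) or siPHF19 replicate 3 (0.0777), each a DESeq2 adjusted p. The CUL4B call in that line was also lost with the replicate number as a block.

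**Figure D4:**
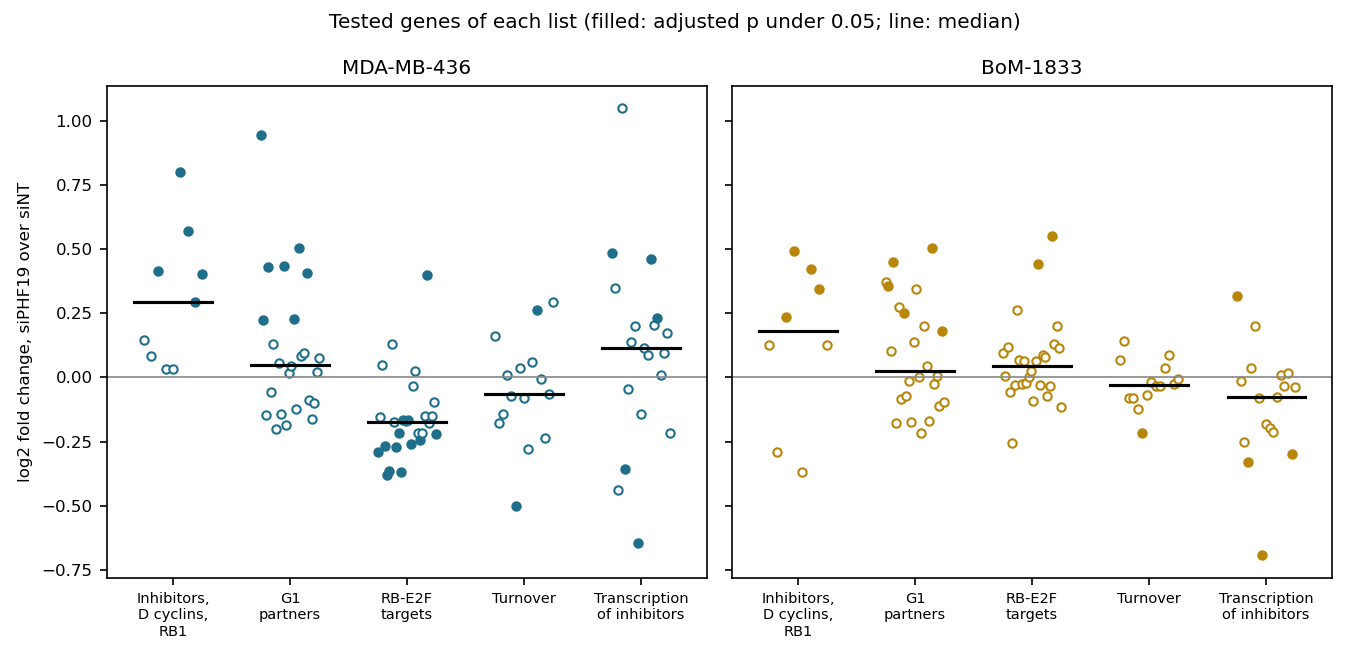
Log2 fold change of siPHF19 over siNT (y axis) for every tested gene of each list (x axis) in MDA-MB-436 (left) and BoM-1833 (right); filled points have an adjusted p under 0.05 and bars mark the list median. The RB-E2F targets lie mostly below 0 in MDA-MB-436, with a median of -0.18, and around 0 in BoM-1833, with a median of 0.04.

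Likeness of pattern was measured for the 3 genes called in both lines as Pearson's r of log2 values over the 12 libraries, centred within each line, among 9835 genes whose mean normalized count reached 100 in both lines. These points share size factors and the siRNA contrast, so r is a description only. CDKN1B was closest to CALM3 (r = 0.98), KRT8 (0.98) and SC5D (0.97). CDKN2C was closest to THTPA (0.99), MARCKS (0.98) and MAL2 (0.98), and CDKN2D to DGCR2 (0.96), EFEMP1 (0.96) and ADAM15 (0.96). Of the inhibitors themselves, CDKN1B and CDKN2C were alike at r = 0.95, CDKN1B and CDKN2D at 0.89 and CDKN2C and CDKN2D at 0.85. CDKN2C ranked 27 among the 9835 genes in likeness to CDKN1B, and CDKN2D ranked 164.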

How the data were processed

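Messenger RNA was sequenced from 4 groups of 3 libraries. Per the submitters' processing notes, STAR, RSEM 1.3.1, DESeq2 1.46.0 and hg38 were used; their roles, and whether counting used strand, are not given in the sources used here. The authors deposited 1 DESeq2 table per line. Its library values are a signal, read counts divided by each library's size factor. Deposited fold changes and standard errors are log2 values, and the deposited Wald statistic is a score. The authors also deposited each p-value, raw and adjusted. The main test is this deposited one. The number of per-sample columns of no sample was 0.

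Whole reads were recovered from the deposited signal (100% of values within 0.01 of a whole number). DESeq2 1.42.0 on these reads gave the authors' call counts, 3143 of 14243 and 1411 of 12906. Alternatives used edgeR 4.0.16 (with and without its filter on low counts), limma 3.58.1 on log2(value + 1) or log2(value + 5) for genes with a mean of at least 10, DESeq2 without independent filtering, a replicate block, and leaving out each library in turn, in R 4.3.3. RPKM and RPM were computed here from the recovered reads. The tests were also run on simulated reads that had the same spread setting for every gene and group. Spread in the real libraries differed between siNT and siPHF19, so that run does not show how the tests perform here. Reads carry no molecular identifiers, so limits on counts of 0 cover counting error only.

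Genes named are the 10 genes, PHF19, genes of the 4 lists called in both lines or called in 1 with an absolute log2 fold change of at least 0.4 and a mean count of at least 100, protein-coding genes within 1 Mb of CDKN2A or RB1, and the 3 genes most like each of 3 inhibitors. The line and cell type markers ESR1, PGR, ERBB2, VIM, CD44, PTPRC and PECAM1 are also named, as are CDKN2B-AS1 and AC008012.1, which overlap genes of the set. CCNA1, CCNE1, FOCAD and TUSC1 were named after their values were seen. The genes and lists were chosen with earlier results of these data known. Some genes that enter the counts are not reported here.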

Additional observations from a re-analysis of the deposited data

Results flagged for a closer look

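Some named genes of the pathway lists differed between the lines in the log2 fold change of siPHF19 over siNT. The threshold was a z test adjusted p under 0.05 over 12290 genes. Those that passed are given here, and the other named list genes did not pass. Each value is the log2 fold change in MDA-MB-436 minus that in BoM-1833. CDK6 differed by 0.45 (z test adjusted p = 0.0184) and KDM6B by 0.45 (0.0237), both higher in MDA-MB-436. MYBL2 differed by -0.48 (z test adjusted p = 8.35e-05). The replication genes MCM3 (-0.35, z test adjusted p = 0.00262) and MCM7 (-0.33, 0.00466) were lower in MDA-MB-436 and near 0 change in BoM-1833. MCM3 and MCM7 were singled out after their values were seen.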

How the results depend on the processing

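Of the 10 genes, 5 were called in MDA-MB-436, 3 without DESeq2's independent filtering and 3 with a replicate block (CDKN1B, CDKN2B and CDKN2C each time). Leaving out 1 library gave 3 to 5. In BoM-1833, 4 were called, 2 with a replicate block (CDKN1B and CDKN2C) and 3 to 5 when leaving out 1 library. The count differing between lines went from 0 to 1 with limma. Of pathway genes, 27 were called in MDA-MB-436, 14 with the block and 14 to 33 without 1 library; 12 were called in BoM-1833, 5 with the block and 5 to 20 without 1 library. With the shortest coding transcript, 12 of 20 ranks of level stayed. Signs turned without 1 library only for uncalled values: CDKN1C in MDA-MB-436 (range -0.024 to 0.0949), CDKN2A in MDA-MB-436 (-0.0166 to 0.0682), CDK6 in BoM-1833 (-0.0938 to 0.0473) and KDM6B in BoM-1833 (-0.0815 to 0.0867). Deviations from the group mean correlated between same-numbered libraries at -0.233, 0.0387 and -0.269 in MDA-MB-436. In BoM-1833 the values were -0.307, -0.117 and -0.199. With 3 libraries per group, centred within each group, these values cannot show whether the replicate numbers pair the libraries. The siNT libraries were less alike than the siPHF19 libraries. Chi-square per degree of freedom between replicates ran from 6.18 to 22.5 (siNT) and 2.63 to 3.46 (siPHF19) in MDA-MB-436. In BoM-1833 it ran from 8.22 to 25.5 and from 2.32 to 3.56. The siNT value was lowest for replicates 2 and 3 in both lines. The part of this unequal spread in the calls was not tested. Fewer libraries or a block leave fewer degrees of freedom; otherwise the cause was not tested. An exact permutation test of 3 against 3 cannot go below p = 0.1. CDKN2A and CDKN2B in BoM-1833 and CCND2 in MDA-MB-436 had too few reads to be tested.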
